A study of Mus musculus with 12 samples.

Results

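The transcriptional response of control shRNA cells to IL1β and IFNγ was measured in MC38CEA cells, a mouse colon adenocarcinoma line that expresses human carcinoembryonic antigen. All genes in the count table were considered, so the members were not chosen by their response: 15648 of 43271 listed rows had enough reads to be tested. The comparison used 6 of the 12 samples of the series, 3 libraries of control shRNA cells stimulated for 6 h with human recombinant IL1β and mouse recombinant IFNγ (10 ng/ml each) and 3 libraries of control shRNA cells left untreated. The other 6 samples were A17.2 cells, which carry an shRNA against *Adam17*, with and without the same cytokines. These samples entered the same statistical fit and helped to estimate the spread and the effect of the replicate number. All 12 came from puromycin-selected pools of cells transduced with a lentiviral pLKO vector, not from clones. No untransduced cells were analysed here. The series text calls the control shRNA cytotoxic, with loss of its cassette, and names another commercial non-targeting shRNA than the methods of the study do.

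IFNγ binds a receptor pair that activates JAK kinases, which leads to factors binding GAS elements in promoters and to more transcription factors of the IRF family. IL1β acts through MYD88 and IRAK kinases on NF-κB and on MAP kinases. Genes of antigen presentation, defence against intracellular pathogens and leukocyte recruitment are the best known targets of the pair. *Nos2*, the inducible nitric oxide synthase, is a classical gene that responds most strongly when IFNγ and an NF-κB activator are given together.

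The cytokine-treated libraries held 16590635 to 26873345 counts and the untreated ones 21233078 to 35857493. Levels are given as CPM, the counts of a gene relative to the library total after scaling by TMM factors. *Adam17*, the target of A17.2, was at 129, 103 and 95.5 CPM in cytokine-treated libraries, against 76.1, 68.4 and 76.5 CPM in untreated libraries, and at 30.8, 29.9 and 27.7 CPM in untreated A17.2 libraries. The line is of colonic origin, but the 12 epithelial markers listed were near 0. None of 12 epithelial markers, among them *Epcam*, *Cdh1*, *Krt8* and *Cdx2*, passed the filter on low counts, and their summed level was 0.328 to 0.536 CPM with cytokines and 0.189 to 0.511 CPM without. *Cdx1* had 0 reads in all 6 libraries. In another list, of epithelial junction and keratin genes, 15 of 35 passed the filter. All 11 mesenchymal markers were detected (summed level 4484 to 5602 CPM with cytokines and 5017 to 5500 CPM without), and the highest single member reached 3247 CPM. Of 8 leukocyte markers 4 were tested, and their summed level was 23.5 to 31.1 CPM with cytokines and 32.1 to 49.1 CPM without. Nearly all of it was *Cd14* (25.1 CPM with cytokines and 35.6 CPM without), while *Ptprc*, the pan-leukocyte marker, was at 0.0156 and 0.0230 CPM and *Cd3e* had 0 reads. Endothelial markers summed to at most 0.610 CPM with cytokines and 0.511 CPM without. The label of the stimulated replicate 1 says that its raw file was corrupted and that only counts were kept, so counts are also given without it.

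IL1β and IFNγ induced 1630 of the 15648 tested genes (10.4%) and repressed 1389 (8.88%), at an adjusted p under 0.05 in edgeR's quasi-likelihood test with the replicate number as a block. The induced genes moved much further than the repressed ones. Their median log2 fold change was 0.75, and 613 rose more than 2-fold, 252 more than 4-fold, 103 more than 10-fold and 23 more than 100-fold. The repressed genes had a median of −0.52, with 130 past 2-fold, 17 past 4-fold and 2 past 10-fold. Over all tested genes the median was −0.029. In a test against a minimum change of 2-fold, 310 genes were induced and 5 repressed. Without the block the test called 491 induced genes (3.14%) and 28 repressed genes (0.179%), all of them among those called with it. Of the 252 genes induced past 4-fold, 199 were also called without the block. Without the stimulated replicate 1, 1459 genes were induced and 951 repressed. The count of repressed genes rested more on single libraries than that of induced genes: it was 708 without the stimulated and 708 without the untreated replicate 2, 826 without the stimulated replicate 3, 779 without the untreated replicate 1, and 920, 533 and 920 without the numbered pairs 1, 2 and 3, while 1207 to 1597 genes were induced over such fits. With scaling by library totals in place of TMM, which moved the median of all genes to −0.11, 1342 genes were induced and 2303 repressed, so that 36.8% of the calls were higher with cytokines, against 54.0% with TMM.

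**Figure D1:**
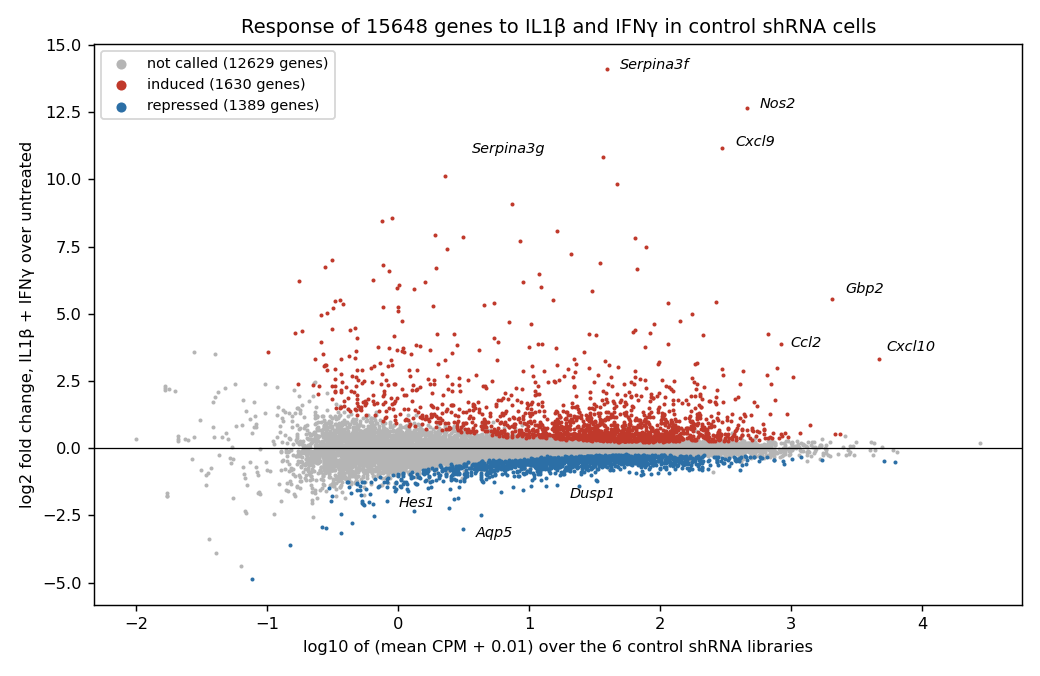
Log2 fold change of each tested gene (IL1β and IFNγ over untreated, vertical axis) against the log10 of its mean CPM plus 0.01 over the 6 control shRNA libraries. The 1630 induced genes (red) reach further from 0 than the 1389 repressed genes (blue); grey points are genes that did not pass the test.

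The libraries of the 2 groups did not overlap for 15.6% of all tested genes. Among the induced genes 1067 did not overlap, and 1623 were higher with cytokines in all 3 numbered pairs. Among the repressed genes 557 did not overlap, and 1373 were lower in all 3 pairs. The induced genes took 18.9, 16.5 and 17.02% of the counts in the cytokine-treated libraries, against 9.39, 9.11 and 10.2% in the untreated ones. For the genes induced past 4-fold the shares were 4.25, 3.21 and 3.08% with cytokines and 0.413, 0.400 and 0.363% without. Most large changes began from a very low level. Of 2390 genes under 1 CPM in untreated cells 219 were induced, 147 of them past 4-fold, and 27 of the 219 reached at least 5 CPM. Of 2171 genes at 100 CPM or more, 247 were induced, 9 of them past 4-fold. These bins were cut on values that also enter the fold change, so they describe the response and test nothing. Genes of the lowest bin could also pass the filter on low counts through stimulated libraries alone.

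The highest-fold induced gene with counts in untreated cells was *Nos2* (ENSMUSG00000020826.8, chromosome 11, 78920787 to 78960254, GRCm38). It was at 767, 915 and 1047 CPM in cytokine-treated libraries, against 0.106, 0.0945 and 0.213 CPM in untreated libraries (log2 fold change 12.64 ± 0.20, adjusted p = 2.1e-15, n = 3 each, as for all genes here). The stimulated libraries lay within a narrow band, and each of the untreated ones held only a few *Nos2* reads. *Serpina3f*, a serine protease inhibitor of the antichymotrypsin family, was at 109, 72.5 and 52.8 CPM with cytokines and had 0 reads in all 3 untreated libraries. Against a floor of 3 counts over the untreated group it was at least 2079-fold higher with cytokines. Its neighbour *Serpina3g* had 4536 reads with cytokines and 3 without, a ratio of 1961 (95% counting interval 671 to 9513). *Cxcl9*, a ligand of the T cell chemokine receptor CXCR3, was at 929, 521 and 332 CPM in cytokine-treated libraries, against 0.264, 0.236 and 0.341 CPM in untreated libraries (log2 fold change 11.16 ± 0.31, adjusted p = 1.2e-12). *Cxcl11* is the gene of another ligand of that receptor, but GENCODE M21 annotates it as a polymorphic pseudogene. It was at 71.03, 25.7 and 26.98 CPM in cytokine-treated libraries, against 0.476, 0.378 and 0 CPM in untreated libraries (log2 fold change 7.21 ± 0.26, adjusted p = 3.2e-11).

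The rest of the 15 highest included a transporter, a ubiquitin ligase, a transcription factor and genes of innate defence. *Apol6*, of the apolipoprotein L family, was at 159.8, 73.2 and 46.1 CPM in cytokine-treated libraries, against 0.0264, 0.189 and 0.128 CPM in untreated libraries (log2 fold change 9.85 ± 0.38, adjusted p = 8.7e-11). *Fam26f*, a member of the calcium homeostasis modulator family, had 885 reads with cytokines and 2 without, a ratio of 573.9 (95% counting interval 158 to 4746). *Slc6a19*, a transporter of neutral amino acids, had 374 and 2 reads, a ratio of 243 (95% counting interval 66.7 to 2010.1). These intervals cover counting error only. *Neurl3*, a ubiquitin ligase, was at 45.8, 24.9 and 25.9 CPM in cytokine-treated libraries, against 0.0793, 0.189 and 0.128 CPM in untreated libraries (log2 fold change 8.08 ± 0.22, adjusted p = 1.1e-12). *Batf2*, a transcription factor of the AP-1 family, was at 153, 109 and 121 CPM in cytokine-treated libraries, against 0.529, 0.614 and 0.597 CPM in untreated libraries (log2 fold change 7.81 ± 0.15, adjusted p = 2.8e-14). Its stimulated libraries lay within 1.41-fold of each other.

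*Pacsin1*, an adaptor of endocytosis known mainly from neurons, was at 28.5, 16.5 and 5.16 CPM in cytokine-treated libraries, against 0.0264, 0.189 and 0.0426 CPM in untreated libraries (log2 fold change 7.70 ± 0.58, adjusted p = 1.2e-07). *Mpeg1*, which encodes the pore-forming protein perforin-2, was at 112, 53.7 and 41.9 CPM in cytokine-treated libraries, against 0.529, 0.614 and 0.639 CPM in untreated libraries (log2 fold change 6.89 ± 0.25, adjusted p = 4.0e-11). *C3*, the central complement component, was at 48.2, 13.8 and 8.68 CPM in cytokine-treated libraries, against 0.317, 0.189 and 0.298 CPM in untreated libraries (log2 fold change 6.49 ± 0.41, adjusted p = 1.8e-08). *Trim30c* was at 20.4, 16.4 and 16.4 CPM in cytokine-treated libraries, against 0.37, 0.0945 and 0.213 CPM in untreated libraries (log2 fold change 6.17 ± 0.24, adjusted p = 1.0e-10). *Gbp4* completed the set of the 15 highest and is described with its family. In 14 of the 15 the stimulated replicate 1 was the highest of the 3, with *Nos2* as the exception. The spread among the stimulated libraries reached 7.25-fold between the highest and lowest for *Gbp4*, 5.53-fold for *Pacsin1* and 5.55-fold for *C3*. The naming rule asked for a call and for groups that did not overlap. The separation of the groups in these 15 was therefore fixed by the choice. Each of the 15 kept its call in all 9 fits without 1 control library or 1 numbered pair.

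**Figure D2:**
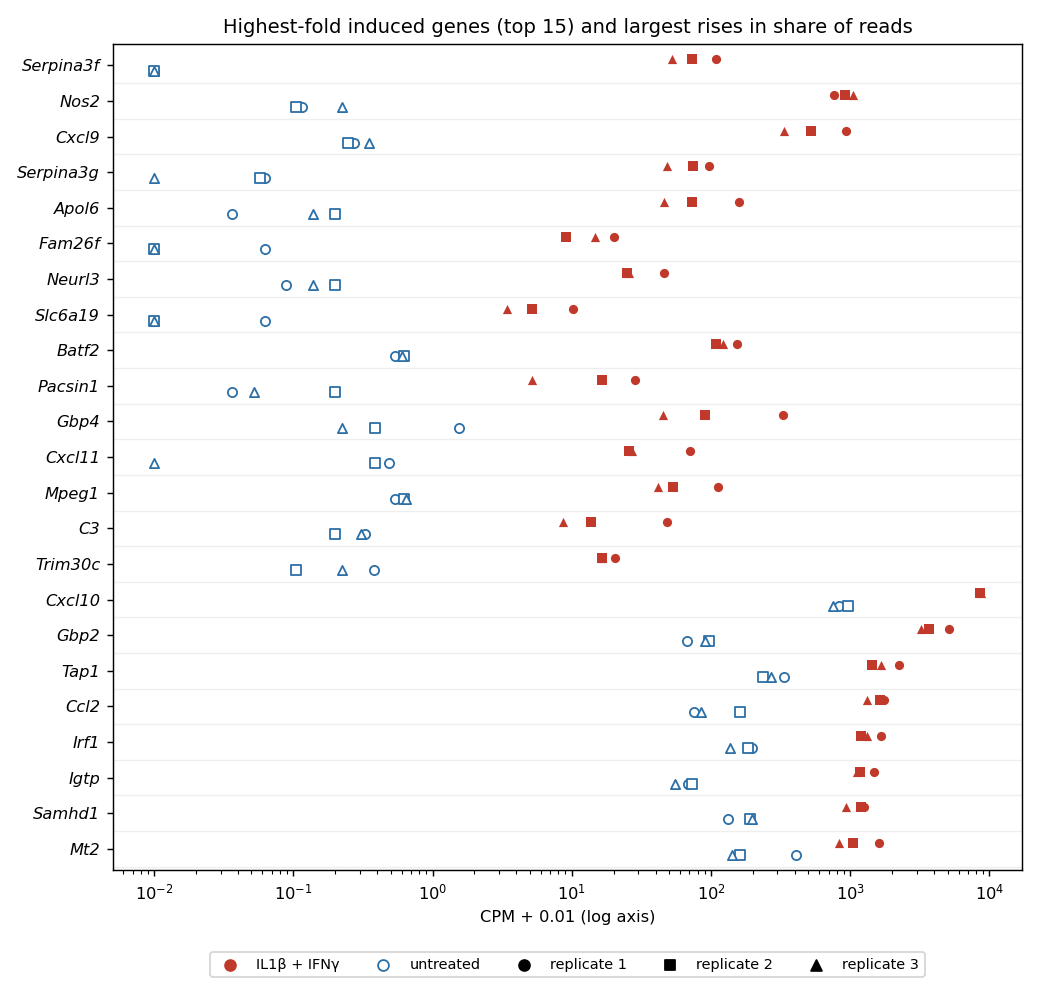
CPM plus 0.01 in each control shRNA library (log axis) of the 15 induced genes with the highest fold change, followed by the 8 with the largest rise in share of reads. Filled red symbols are libraries with IL1β and IFNγ, open blue symbols untreated libraries, and the symbol shape gives the replicate number. For all 23 genes the 2 groups are apart, as the rule that chose them required, and *Serpina3f* has 0 reads in every untreated library.

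Measured by the share of reads rather than by fold, the response was led by genes that untreated cells already expressed. *Cxcl10*, also a ligand of CXCR3, rose to 8419, 8492 and 8709.8 CPM with cytokines, against 829, 970.3 and 748 CPM without (log2 fold change 3.33 ± 0.19, adjusted p = 4.7e-09). Per kilobase of exon it ranked 2 of 14917 annotated genes in stimulated cells and 152 in untreated cells. *Gbp2* rose to 5152, 3670.5 and 3206 CPM, against 67.7, 96.6 and 90.5 CPM (log2 fold change 5.57 ± 0.28, adjusted p = 1.4e-09). *Tap1*, a subunit of the peptide transporter for MHC class I, rose to 2239, 1442 and 1674 CPM, against 333, 236 and 272 CPM (log2 fold change 2.67 ± 0.18, adjusted p = 3.2e-08). *Ccl2*, a chemoattractant of monocytes, rose to 1753, 1628 and 1317 CPM, against 75.7, 163 and 85.1 CPM (log2 fold change 3.88 ± 0.37, adjusted p = 1.9e-06). *Irf1*, a transcription factor of the interferon response, rose to 1673, 1187 and 1312 CPM, against 197, 184 and 138 CPM (log2 fold change 3.00 ± 0.15, adjusted p = 1.1e-09). In these 5 genes every stimulated library was above every untreated one, as the naming rule required.

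*Igtp*, an immunity-related GTPase, rose to 1476, 1171 and 1110.0 CPM, against 68.7, 73.1 and 54.9 CPM (log2 fold change 4.25 ± 0.18, adjusted p = 2.6e-10). *Samhd1*, which degrades deoxynucleotides and restricts viruses, rose to 1256, 1197 and 938 CPM, against 132, 192 and 197 CPM (log2 fold change 2.73 ± 0.16, adjusted p = 8.3e-09). *Mt2*, a metallothionein, rose to 1605, 1053 and 836 CPM, against 407, 162 and 142 CPM (log2 fold change 2.40 ± 0.15, adjusted p = 1.4e-08). Replicate 1 was the highest library for *Mt2* in each group. *Art3*, which overlaps *Cxcl10* on the other strand, was also induced, to 0.548 CPM against 0.0882 CPM. The strand setting of the counting is not given in the sources used here, so reads of such a pair cannot be told apart; the same holds for *Tap1* and *Psmb9*.

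The promoters of 5 of these genes, chosen after their matches were seen, are shown because they carry, within 250 bases before and 50 after the start, motifs of the factors that IFNγ and IL1β act through. The sequences are from RefSeq (GRCm38.p6), 5′ to 3′ on the strand of the gene. Capitals mark matches, on either strand, to GAS (TTCNNNGAA, the IFNγ-activated site), to ISRE (TTTC, any 2 bases, then TTTC, the IRF element) or to the 10-base κB consensus of NF-κB.
Cxcl10 (chr5:92348840-92349139, minus strand): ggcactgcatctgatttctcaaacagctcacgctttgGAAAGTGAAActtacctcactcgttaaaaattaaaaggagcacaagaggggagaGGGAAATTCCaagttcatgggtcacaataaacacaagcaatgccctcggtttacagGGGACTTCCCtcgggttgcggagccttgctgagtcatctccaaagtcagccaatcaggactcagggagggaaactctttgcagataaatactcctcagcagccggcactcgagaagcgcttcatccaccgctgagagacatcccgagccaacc
Gbp2 (chr3:142620413-142620712, plus strand): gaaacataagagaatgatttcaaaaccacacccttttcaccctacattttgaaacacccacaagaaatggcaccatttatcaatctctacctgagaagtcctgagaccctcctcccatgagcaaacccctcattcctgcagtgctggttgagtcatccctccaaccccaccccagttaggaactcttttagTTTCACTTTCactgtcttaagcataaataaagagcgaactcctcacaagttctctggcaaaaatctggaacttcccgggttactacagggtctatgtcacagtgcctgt
Irf1 (chr11:53769764-53770063, plus strand): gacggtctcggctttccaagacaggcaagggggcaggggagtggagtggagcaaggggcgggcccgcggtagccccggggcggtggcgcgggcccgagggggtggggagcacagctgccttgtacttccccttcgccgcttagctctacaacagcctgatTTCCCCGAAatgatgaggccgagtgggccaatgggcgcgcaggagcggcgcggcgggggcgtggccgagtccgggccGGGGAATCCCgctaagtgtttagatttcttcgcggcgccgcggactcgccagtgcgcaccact
Igtp (chr11:58199306-58199605, plus strand): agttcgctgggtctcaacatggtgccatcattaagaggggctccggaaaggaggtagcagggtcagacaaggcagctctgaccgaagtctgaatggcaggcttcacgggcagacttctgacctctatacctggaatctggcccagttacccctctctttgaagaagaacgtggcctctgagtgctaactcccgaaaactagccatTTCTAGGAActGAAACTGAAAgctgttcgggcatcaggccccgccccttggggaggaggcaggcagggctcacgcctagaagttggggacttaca
Serpina3g (chr12:104235897-104236196, plus strand): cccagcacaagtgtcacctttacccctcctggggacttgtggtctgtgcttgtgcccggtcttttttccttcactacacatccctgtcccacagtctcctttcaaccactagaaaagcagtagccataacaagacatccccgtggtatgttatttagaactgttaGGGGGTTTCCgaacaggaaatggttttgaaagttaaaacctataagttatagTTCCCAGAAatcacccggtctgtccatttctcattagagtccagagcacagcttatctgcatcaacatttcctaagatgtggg
In *Cxcl10* an ISRE match precedes 2 κB matches, *Gbp2* holds a single ISRE match, and *Irf1* holds a GAS and a κB match. In *Igtp* a GAS match lies 2 bases before an ISRE match, and in *Serpina3g* a κB match lies before a GAS match. Of the 23 genes in the plot of induced genes 16 had a window in the table, and 9 of these held at least 1 of the motifs. *Cxcl9*, *Tap1*, *C3* and *Mt2* were among the 7 that held none of these letters.

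Over all tested genes, 9430 had a window (12048 windows). GAS was in 6.93% of all windows, ISRE in 3.17% and the κB consensus in 5.25%. In the 1585 windows of 1179 induced genes the shares were 9.40% for GAS, 8.08% for ISRE and 8.26% for κB. In the 203 windows of 156 genes induced past 4-fold they were 15.3, 17.7 and 12.8%. In the 762 windows of 590 repressed genes they were 4.72, 2.36 and 4.59%. A match is a description of the letters and not of a bound site, and no test was run on these shares.

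Over all tested genes 10.4% were induced and 8.88% repressed. The counts of this and later lists are to be read against these shares. All 9 guanylate-binding protein genes that were tested were induced. These large GTPases attack the vacuoles of intracellular pathogens. Their median log2 fold change was 5.39, and the same 9 were called without the block. *Gbp4* was at 327, 89.9 and 45.1 CPM in cytokine-treated libraries, against 1.53, 0.378 and 0.213 CPM in untreated libraries (log2 fold change 7.50 ± 0.40, adjusted p = 2.9e-09). *Gbp5* was at 485, 437 and 631 CPM in cytokine-treated libraries, against 6.35, 10.7 and 21.4 CPM in untreated libraries (log2 fold change 5.46 ± 0.26, adjusted p = 8.0e-10). *Gbp6* was at 409.8, 234 and 177 CPM in cytokine-treated libraries, against 13.3, 8.74 and 7.63 CPM in untreated libraries (log2 fold change 4.75 ± 0.18, adjusted p = 4.5e-11). For these 3 genes the lowest stimulated library was more than 4-fold above the highest untreated one. Of 13 tested immunity-related GTPases, which act on the same vacuoles, 12 were induced (10 without the block), with a median of 3.14. *Gm12250*, also known as *Irgb10*, averaged 222 ± 29.9 CPM with cytokines and 5.64 ± 2.30 CPM without (SD, log2 fold change 5.39 ± 0.25, adjusted p = 6.2e-10). *Tgtp1* averaged 173 ± 70.5 CPM with cytokines and 6.79 ± 1.45 CPM without (SD, log2 fold change 4.64 ± 0.21, adjusted p = 4.3e-10). *Irgm2* averaged 328 ± 21.5 CPM with cytokines and 37.2 ± 4.80 CPM without (SD, log2 fold change 3.14 ± 0.16, adjusted p = 2.0e-09). The exception was *Irgq*, at 9.97 CPM with cytokines and 9.40 CPM without (adjusted p = 0.72). Some members of these families, *Tgtp1* and *Tgtp2* above all, are close copies. Others overlap on the same strand, *Gbp4* with *Gbp8* and *Gbp9*, and *Igtp* with *Irgm2*. The split of reads between such members is uncertain.

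Of 22 tested genes of the IFNγ receptor, JAK, STAT and SOCS group 10 were induced and none repressed (7 and none without the block). The largest changes were in genes of feedback. *Socs1*, an inhibitor of JAK kinases, was at 80.9, 56.3 and 67.7 CPM in cytokine-treated libraries, against 8.49, 6.71 and 6.18 CPM in untreated libraries (log2 fold change 3.26 ± 0.10, adjusted p = 4.5e-12). *Socs3* was at 137, 196 and 195 CPM in cytokine-treated libraries, against 27.4, 31.9 and 30.1 CPM in untreated libraries (log2 fold change 2.54 ± 0.11, adjusted p = 1.8e-10). *Jak2* averaged 105 ± 19.5 CPM with cytokines and 30.4 ± 4.84 CPM without (SD, log2 fold change 1.78 ± 0.092, adjusted p = 2.0e-09). *Stat3* averaged 291 ± 50.02 CPM with cytokines and 76.5 ± 16.4 CPM without (SD, log2 fold change 1.94 ± 0.094, adjusted p = 9.8e-10). *Stat3* overlaps *Stat5a* on the other strand. Among 10 interferon regulatory factors and their partners 7 were induced. Besides *Irf1* and *Batf2*, these included *Nlrc5*, the transactivator of MHC class I genes, at 470.3, 225 and 201 CPM in cytokine-treated libraries, against 75.01, 40.6 and 31.3 CPM in untreated libraries (log2 fold change 2.60 ± 0.10, adjusted p = 9.5e-11). They also included *Irf2*, a relative of *Irf1* that can oppose it, at 42.8, 61.3 and 90.9 CPM in cytokine-treated libraries, against 15.02, 23.1 and 30.9 CPM in untreated libraries (log2 fold change 1.498 ± 0.11, adjusted p = 1.2e-07). The corepressor gene *Irf2bp2* fell to 36.8 CPM, against 49.3 CPM (adjusted p = 0.0089, call lost in 3 of 9 fits with control libraries left out).

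Of 19 tested genes of MHC class I presentation 16 were induced, with a median log2 fold change of 0.98. Only 5 of the 16 were called without the block. *Tapbpl*, a peptide editor, was at 136, 77.7 and 65.97 CPM in cytokine-treated libraries, against 27.2, 18.7 and 18.03 CPM in untreated libraries (log2 fold change 2.09 ± 0.15, adjusted p = 9.6e-08). *Tap2* was at 909, 452 and 385 CPM in cytokine-treated libraries, against 219, 133 and 119.6 CPM in untreated libraries (log2 fold change 1.85 ± 0.18, adjusted p = 2.0e-06). *H2-M3* was at 165, 97.97 and 83.1 CPM in cytokine-treated libraries, against 67.9, 42.8 and 41.9 CPM in untreated libraries (log2 fold change 1.16 ± 0.12, adjusted p = 3.4e-06). The members that did not pass were *H2-T24* (adjusted p = 0.053) and the chaperone genes *Calr* (0.085) and *Pdia3* (0.26). All 5 immunoproteasome genes were induced. Their median was 1.24, against 0.13 for 14 constitutive proteasome genes, of which 1 was induced (*Psma5*, 0.45 ± 0.092). *Psmb9* was at 407, 279 and 240.1 CPM in cytokine-treated libraries, against 63.1, 61.95 and 71.9 CPM in untreated libraries (log2 fold change 2.21 ± 0.17, adjusted p = 1.3e-07). *Psmb10* was at 909, 506 and 442 CPM in cytokine-treated libraries, against 175, 146 and 154 CPM in untreated libraries (log2 fold change 1.90 ± 0.18, adjusted p = 2.1e-06). *Psmb8* was at 941, 619 and 539.8 CPM in cytokine-treated libraries, against 304, 294 and 280.1 CPM in untreated libraries (log2 fold change 1.24 ± 0.18, adjusted p = 1.4e-04). Stimulated replicate 1 was the highest library for *Tap1*, *Tapbpl*, *Tap2*, *H2-M3* and these 3 subunits, and the groups were apart for each. The activator subunit *Psme1* averaged 329 ± 32.96 CPM with cytokines and 185 ± 21.6 CPM without (SD, log2 fold change 0.84 ± 0.14, adjusted p = 6.3e-04).

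Most MHC class II genes were close to 0 in untreated cells. Of 10 tested, 6 were induced, 1 of them without the block, where 10.4% of all tested genes were induced with the block. *Ciita*, the master regulator of the class II genes, had 162 reads with cytokines and 3 without, a ratio of 70.0 (95% counting interval 23.5 to 343.2). *H2-Aa* had 51 and 3 reads, a ratio of 22.05 (95% counting interval 7.13 to 110.4). Its stimulated libraries were far apart, at 1.79, 0.746 and 0.0938 CPM against 0.0264, 0.0473 and 0.0426 CPM without cytokines, a spread that the interval does not cover. *Cd74*, the invariant chain, was at 3.16, 1.53 and 1.45 CPM in cytokine-treated libraries, against 0.582, 0.236 and 0.597 CPM in untreated libraries (log2 fold change 2.18 ± 0.34, adjusted p = 3.2e-04). *H2-DMa*, which loads peptides on class II, was at 15.1, 11.5 and 11.97 CPM in cytokine-treated libraries, against 5.16, 9.07 and 5.58 CPM in untreated libraries (log2 fold change 0.98 ± 0.23, adjusted p = 0.0068).

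Of 35 listed chemokine genes 17 were tested and 12 were induced, all 12 also without the block. Their list median was 3.33. Besides *Cxcl9*, *Cxcl10*, *Cxcl11* and *Ccl2*, these included *Ccl7*, another monocyte chemoattractant, at 116, 162 and 145 CPM in cytokine-treated libraries, against 7.09, 14.6 and 10.1 CPM in untreated libraries (log2 fold change 3.77 ± 0.20, adjusted p = 2.1e-09). *Cxcl1*, a chemoattractant of neutrophils, was at 518, 259 and 241 CPM in cytokine-treated libraries, against 17.5, 12.003 and 4.13 CPM in untreated libraries (log2 fold change 4.98 ± 0.21, adjusted p = 2.3e-10). Of 16 tested interleukins, colony-stimulating factors and TNF family ligands 8 were induced and 3 repressed (4 and none without the block). Among all tested genes the shares were 10.4 and 8.88%. *Il15*, a growth factor of NK and CD8 T cells, was at 30.03, 21.8 and 27.9 CPM in cytokine-treated libraries, against 4.49, 5.15 and 4.56 CPM in untreated libraries (log2 fold change 2.48 ± 0.15, adjusted p = 9.2e-09). *Tnfsf10*, which encodes the death ligand TRAIL, was at 29.4, 18.3 and 18.3 CPM in cytokine-treated libraries, against 1.53, 1.56 and 1.41 CPM in untreated libraries (log2 fold change 3.87 ± 0.26, adjusted p = 3.4e-08). *Lif* averaged 111 ± 44.3 CPM with cytokines and 17.04 ± 3.31 CPM without (SD, log2 fold change 2.66 ± 0.18, adjusted p = 4.7e-08). *Csf1*, the growth factor of macrophages, averaged 620.2 ± 157 CPM with cytokines and 253 ± 50.1 CPM without (SD, log2 fold change 1.28 ± 0.14, adjusted p = 1.1e-05). The 3 repressed genes were *Il16* (−1.24), *Il34* (−0.35) and *Clcf1* (−0.47 on the log2 scale), which lost their calls in 3, 7 and 5 of 9 fits with control libraries left out.

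Of 17 tested genes of IL1 receptor signalling 5 were induced and none repressed (4 and none without the block), where 10.4 and 8.88% of all tested genes were. *Irak2* was at 31.6, 26.5 and 30.7 CPM in cytokine-treated libraries, against 1.98, 2.27 and 2.43 CPM in untreated libraries (log2 fold change 3.74 ± 0.15, adjusted p = 1.5e-10). *Il1rl1*, the IL33 receptor, averaged 321 ± 33.1 CPM with cytokines and 83.9 ± 10.96 CPM without (SD, log2 fold change 1.94 ± 0.11, adjusted p = 8.3e-09). *Myd88*, the adaptor of the receptor, averaged 138 ± 12.8 CPM with cytokines and 53.3 ± 4.48 CPM without (SD, log2 fold change 1.36 ± 0.11, adjusted p = 2.8e-07). Of 25 tested NF-κB subunit and feedback genes 19 were induced and none repressed (13 and none without the block), with a median of 0.87. *Bcl3* was at 39.4, 47.9 and 74.7 CPM in cytokine-treated libraries, against 2.41, 2.74 and 2.98 CPM in untreated libraries (log2 fold change 4.26 ± 0.13, adjusted p = 5.5e-12). *Nfkbiz*, a nuclear IκB protein, was at 149.9, 188 and 190.0 CPM in cytokine-treated libraries, against 26.5, 19.6 and 12.3 CPM in untreated libraries (log2 fold change 3.20 ± 0.25, adjusted p = 2.1e-07). *Nfkbib* averaged 121 ± 27.6 CPM with cytokines and 47.5 ± 11.6 CPM without (SD, log2 fold change 1.36 ± 0.11, adjusted p = 2.9e-07). *Birc3*, a ubiquitin ligase of the path, averaged 44.2 ± 6.97 CPM with cytokines and 18.3 ± 1.93 CPM without (SD, log2 fold change 1.26 ± 0.10, adjusted p = 2.4e-07).

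Of 39 tested antiviral genes of the interferon response 35 were induced, with a median of 1.04 (21 without the block). *Ifit1*, which binds foreign RNA caps, was at 319, 429.7 and 448 CPM in cytokine-treated libraries, against 83.8, 149.9 and 134 CPM in untreated libraries (log2 fold change 1.72 ± 0.19, adjusted p = 7.9e-06). *Cmpk2* was at 138, 137 and 138 CPM in cytokine-treated libraries, against 30.2, 41.1 and 46.9 CPM in untreated libraries (log2 fold change 1.86 ± 0.20, adjusted p = 7.9e-06). *Ifit2* was at 62.3, 70.3 and 104 CPM in cytokine-treated libraries, against 19.5, 26.7 and 33.5 CPM in untreated libraries (log2 fold change 1.57 ± 0.13, adjusted p = 3.9e-07). *Oas1b*, of the oligoadenylate synthetase family, is also annotated as a polymorphic pseudogene. It was at 59.9, 37.8 and 28.6 CPM in cytokine-treated libraries, against 29.8, 19.9 and 14.8 CPM in untreated libraries (log2 fold change 0.96 ± 0.16, adjusted p = 4.2e-04). Its groups overlapped although it was higher with cytokines in each of the 3 pairs, and without the block its adjusted p was 0.23. The 4 that did not pass were *Ifi27* (adjusted p = 0.14), *Ifi27l2a* (0.92), *Ifitm2* (0.081) and *Bst2* (0.091). All 22 PARP, ubiquitin and TRIM genes of the interferon response were induced, 20 also without the block, with a median of 1.52. *Parp14* was at 297, 270.0 and 344 CPM in cytokine-treated libraries, against 43.6, 57.7 and 63.8 CPM in untreated libraries (log2 fold change 2.47 ± 0.16, adjusted p = 3.1e-08). *Dtx3l*, a ubiquitin ligase that overlaps its partner *Parp9* on the other strand, averaged 129 ± 40.2 CPM with cytokines and 27.4 ± 8.33 CPM without (SD, log2 fold change 2.24 ± 0.14, adjusted p = 1.4e-08). *Trim21*, a cytosolic antibody receptor, averaged 105 ± 19.1 CPM with cytokines and 26.7 ± 5.39 CPM without (SD, log2 fold change 1.97 ± 0.12, adjusted p = 1.2e-08). *Parp10* averaged 304 ± 69.7 CPM with cytokines and 104 ± 21.2 CPM without (SD, log2 fold change 1.55 ± 0.10, adjusted p = 3.2e-08).

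Of 21 tested sensors of nucleic acids and bacterial patterns 14 were induced and none repressed (11 and none without the block). *Tmem173*, which encodes STING, was at 183, 176 and 218 CPM in cytokine-treated libraries, against 42.7, 40.2 and 35.3 CPM in untreated libraries (log2 fold change 2.28 ± 0.10, adjusted p = 5.4e-10). *Nod1*, a sensor of bacterial cell wall, was at 60.9, 55.9 and 66.7 CPM in cytokine-treated libraries, against 2.12, 3.92 and 4.22 CPM in untreated libraries (log2 fold change 4.23 ± 0.19, adjusted p = 5.5e-10). *Ifi205* averaged 113 ± 13.3 CPM with cytokines and 15.6 ± 1.80 CPM without (SD, log2 fold change 2.87 ± 0.17, adjusted p = 8.2e-09). *Tlr3*, a receptor of double-stranded RNA, averaged 59.7 ± 3.25 CPM with cytokines and 13.6 ± 2.61 CPM without (SD, log2 fold change 2.15 ± 0.13, adjusted p = 1.3e-08). In the group of nitric oxide, arginine and tryptophan metabolism 6 of 15 were induced, all 6 also without the block. After *Nos2* the largest was *Ido1*, which degrades tryptophan, at 16.4, 7.54 and 2.67 CPM in cytokine-treated libraries, against 0.397, 0.189 and 0.0426 CPM in untreated libraries (log2 fold change 5.34 ± 0.30, adjusted p = 5.0e-09). *Ido2* averaged 23.5 ± 12.996 CPM with cytokines and 4.10 ± 2.04 CPM without (SD, log2 fold change 2.48 ± 0.19, adjusted p = 2.0e-07). *Slc7a2*, an importer of arginine, averaged 109 ± 29.7 CPM with cytokines and 48.7 ± 12.2 CPM without (SD, log2 fold change 1.15 ± 0.096, adjusted p = 4.1e-07). Of 7 prostaglandin synthesis genes 3 were induced, *Ptgs2* (1.11 ± 0.15), *Ptges* (0.66 ± 0.11) and *Pla2g4a* (0.30 ± 0.099 on the log2 scale). Among all tested genes 10.4% were induced. *Pla2g4a* was at 127, 83.9 and 124 CPM with cytokines and 86.96, 74.5 and 109 CPM without, so its groups overlapped, and it lost its call in 8 of the 9 fits that left out 1 control library or 1 numbered pair.

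Of 18 tested complement and acute phase genes 15 were induced and none repressed (11 and none without the block), with a median of 4.19. *Serpina3f*, *Serpina3g*, *Serpina3i* and *C3* led the list. *Serpina3i* had 224 reads with cytokines and 1 without, a ratio of 291 (95% counting interval 51.6 to 11525.6). The *Serpina3* genes lie side by side and are close copies, so their reads may be split unevenly. Of 11 checkpoint and adhesion genes 9 were induced, 4 also without the block. *Cd274*, which encodes PD-L1, was at 218, 119 and 143 CPM in cytokine-treated libraries, against 10.6, 6.62 and 6.90 CPM in untreated libraries (log2 fold change 4.30 ± 0.11, adjusted p = 7.9e-13). *Icam1*, an adhesion molecule for leukocytes, was at 5.18, 2.08 and 3.47 CPM in cytokine-treated libraries, against 0.159, 0 and 0.0852 CPM in untreated libraries (log2 fold change 5.30 ± 0.35, adjusted p = 3.3e-08). *Vcam1* averaged 792 ± 153 CPM with cytokines and 239 ± 17.21 CPM without (SD, log2 fold change 1.72 ± 0.19, adjusted p = 7.4e-06). *Lgals9* averaged 243 ± 38.4 CPM with cytokines and 131 ± 24.99 CPM without (SD, log2 fold change 0.90 ± 0.11, adjusted p = 2.4e-05).

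Of 24 tested cell death genes 15 were induced and 1 repressed (9 and none without the block). Among all tested genes the shares were 10.4 and 8.88%. *Fas*, the death receptor, was at 97.2, 36.1 and 43.5 CPM in cytokine-treated libraries, against 1.45, 1.04 and 0.639 CPM in untreated libraries (log2 fold change 5.85 ± 0.16, adjusted p = 1.1e-12). *Casp4*, the sensor of cytosolic lipopolysaccharide also called caspase 11 in mice, averaged 84.97 ± 28.5 CPM with cytokines and 22.04 ± 10.2 CPM without (SD, log2 fold change 1.97 ± 0.11, adjusted p = 4.7e-09). *Ripk2*, the kinase downstream of NOD1, averaged 62.7 ± 11.8 CPM with cytokines and 14.8 ± 0.942 CPM without (SD, log2 fold change 2.07 ± 0.12, adjusted p = 5.2e-09). *Bcl2l11*, which encodes the death-promoting protein BIM, averaged 36.2 ± 8.58 CPM with cytokines and 9.45 ± 2.17 CPM without (SD, log2 fold change 1.94 ± 0.13, adjusted p = 3.0e-08). The repressed gene was *Bax*, at 117 ± 6.31 CPM with cytokines and 175 ± 54.2 CPM without (SD, log2 fold change −0.55 ± 0.12, adjusted p = 0.0045), which lost its call in 2 of 9 fits with control libraries left out. Genes that promote death and genes of inflammatory signalling are both in this list. Among the lists above with no repressed member, 1 member each was lower at an unadjusted p under 0.05 in the lists of MHC class II, NF-κB, antiviral, sensor and nitric oxide genes, and DESeq2 called 1 repressed gene, in the NF-κB list.

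**Figure D3:**
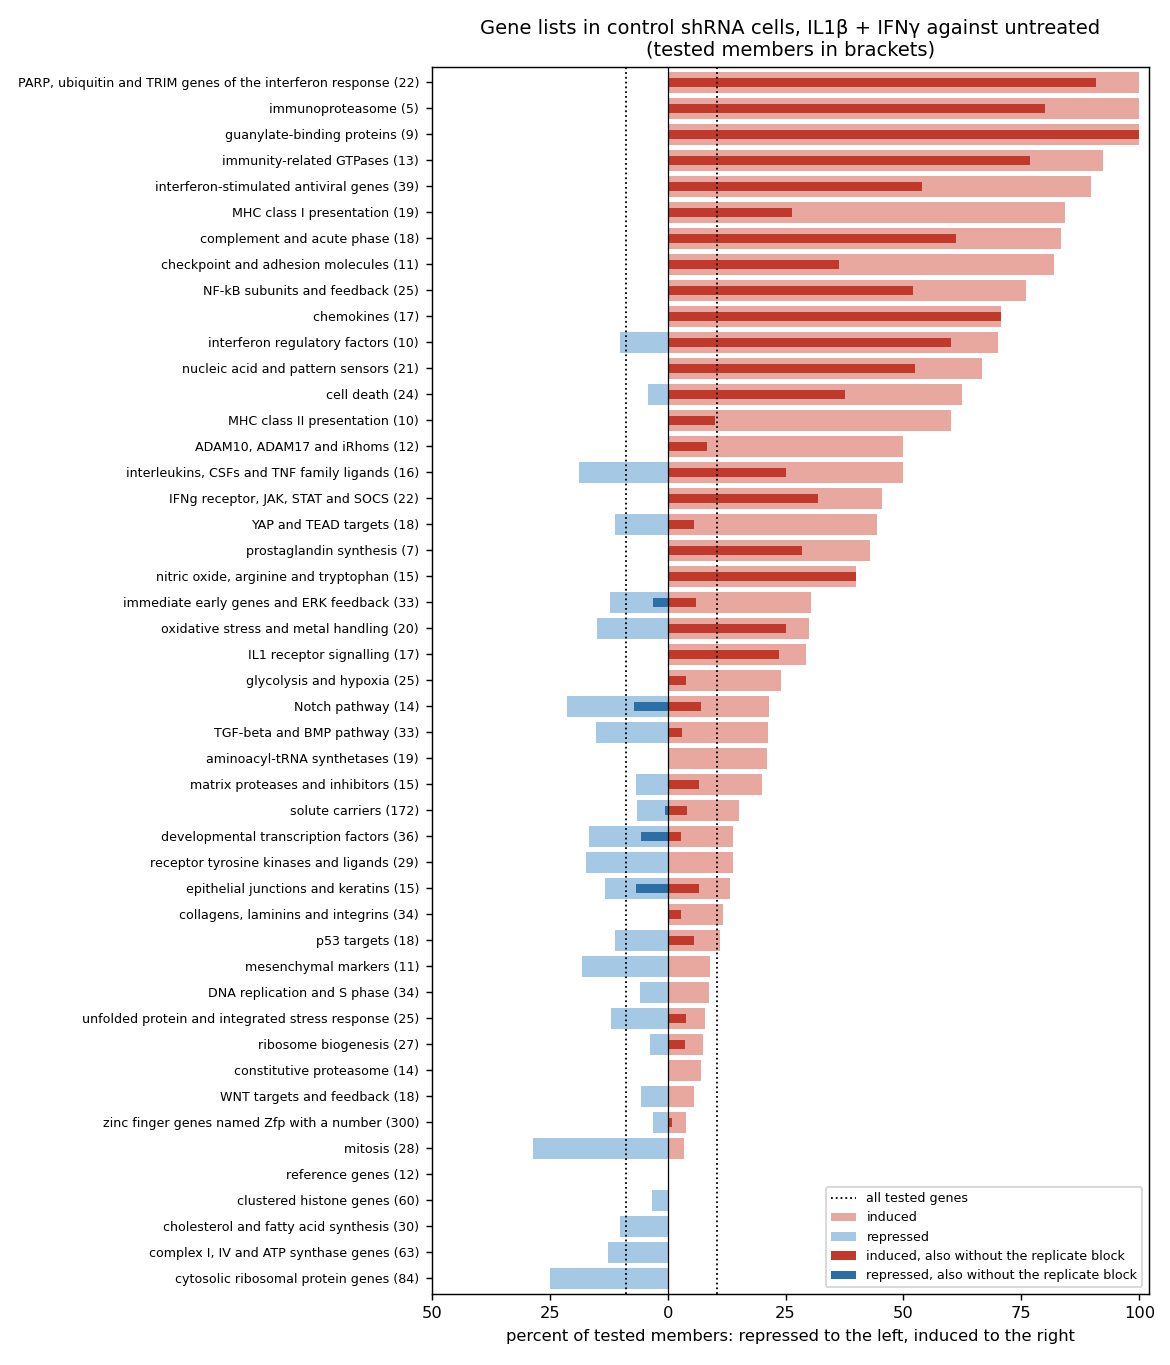
Percent of the tested members of each gene list that were induced (to the right) or repressed (to the left) in control shRNA cells, with the number of tested members in brackets. Pale bars show calls with the replicate block, dark bars calls that were also made without it, and dotted lines the share among all tested genes (10.4 and 8.88%); lists of the interferon response fill the top rows and ribosomal protein genes the bottom row.

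The strongly induced genes were often neighbours. Of 243 genes induced past 4-fold that had a unique position in GENCODE M21, 79 lay in 19 runs of 3 or more with gaps of at most 200000 bases. A run on chromosome 5, 105014150 to 105346472, held *Gbp8*, *Gbp9*, *Gbp4*, *Gbp6* and *Gbp11*, and another on chromosome 3, 142493978 to 142638008, held *Gbp5*, *Gbp7*, *Gbp3* and *Gbp2*. On chromosome 5, 92321347 to 92414628, *Cxcl9*, *Cxcl10* and *Cxcl11* lay together with *Art3*. On chromosome 11, 82035571 to 82116799, lay *Ccl2*, *Ccl7*, *Ccl12* and *Ccl8*. On chromosome 12, 104214544 to 104414329, lay 5 *Serpina3* genes. Many of these runs are families of close copies, for which reads may be shared, and no expectation for runs was computed.

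Of 33 tested immediate early and ERK feedback genes 10 were induced and 4 repressed (2 and 1 without the block), where 10.4 and 8.88% of all tested genes were called. *Zfp36*, which encodes an RNA-binding protein that destabilizes cytokine mRNAs, was at 69.8, 93.7 and 144 CPM in cytokine-treated libraries, against 13.9, 20.7 and 19.3 CPM in untreated libraries (log2 fold change 2.47 ± 0.12, adjusted p = 9.4e-10). *Junb*, of the AP-1 family, was at 329, 209 and 194 CPM in cytokine-treated libraries, against 137, 59.4 and 52.3 CPM in untreated libraries (log2 fold change 1.63 ± 0.14, adjusted p = 8.5e-07). *Fosl2* averaged 65.2 ± 15.3 CPM with cytokines and 37.8 ± 13.7 CPM without (SD, log2 fold change 0.83 ± 0.098, adjusted p = 1.7e-05). The 4 repressed genes were *Dusp1*, *Dusp2* (−1.15 ± 0.24), *Spry1* (−1.002 ± 0.19) and *Ier2* (−0.49 ± 0.11 on the log2 scale), and *Dusp1*, *Dusp2* and *Spry1* encode inhibitors of MAP kinase signalling. Of 20 oxidative stress and metal genes 6 were induced and 3 repressed (5 and none without the block). *Sod2*, the mitochondrial superoxide dismutase, was at 409, 271 and 296 CPM in cytokine-treated libraries, against 88.04, 97.7 and 88.7 CPM in untreated libraries (log2 fold change 1.81 ± 0.13, adjusted p = 5.1e-08). The iron importer gene *Slc11a2* averaged 247 ± 39.3 CPM with cytokines and 93.5 ± 12.1 CPM without (SD, log2 fold change 1.40 ± 0.11, adjusted p = 2.8e-07). *Gclm*, the modifier subunit of glutathione synthesis, averaged 159 ± 12.99 CPM with cytokines and 84.003 ± 16.7 CPM without (SD, log2 fold change 0.94 ± 0.092, adjusted p = 2.5e-06). The catalytic subunit *Gclc* was repressed (−0.37 ± 0.094), as were *Nqo1* (−0.47 ± 0.15) and the ferritin gene *Ftl1* (−0.60 ± 0.14 on the log2 scale); with control libraries left out *Gclc* lost its call in 4, *Nqo1* in 7 and *Ftl1* in 3 of 9 fits.

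*Adam17* and *Adam10* encode the metalloproteases that the study is about. Of 12 tested genes of the list on ADAM10, ADAM17 and iRhoms 6 were induced and none repressed. Of all tested genes 10.4 and 8.88% were called in these directions. Of the 6 only *Rhbdf2* was also called without the block (adjusted p = 0.018). *Adam17* rose in each pair (log2 fold change 0.55 ± 0.093, adjusted p = 5.5e-04), but was not called without the block (adjusted p = 0.073). *Adam10* was at 32.9, 34.5 and 35.5 CPM in cytokine-treated libraries, against 22.9, 25.8 and 33.3 CPM in untreated libraries (log2 fold change 0.35 ± 0.10, adjusted p = 0.023). Its groups overlapped, and without the block its adjusted p was 0.61. It lost its call in 5 of the 9 fits without 1 control library or 1 numbered pair, where the highest adjusted p was 0.12. Of 12 reference genes none passed in either direction in edgeR or DESeq2, and 1 was lower at an unadjusted p under 0.05, with a list median of −0.025. The reference genes used in the study, *Eef2* (0.22 ± 0.13) and *Polr2b* (log2 fold change −0.0066 ± 0.082), had adjusted p = 0.25 and 0.97.

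The repressed genes were many, but their changes were small and nearly all of the calls were lost without the replicate block. Of the 1389 repressed genes, 740 were protein coding and 549 were pseudogenes in GENCODE M21, and 70 had no unique symbol there. Pseudogenes were called repressed in 20.5% of 2684 tested, against 6.47% of 11438 protein-coding genes. For induction the shares were 2.35% of pseudogenes and 12.8% of protein-coding genes. The median log2 fold change was −0.23 over all tested pseudogenes and −0.0015 over protein-coding genes. Of the repressed pseudogenes 538 are processed copies of other genes. How reads that match several places were counted is not given in the sources used here, so these calls are uncertain as to the gene of origin.

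The lowest fold change by the naming rule was that of *Aqp5*, a water channel, at 0.775, 0.707 and 0.704 CPM in cytokine-treated libraries, against 7.35, 4.39 and 4.60 CPM in untreated libraries (log2 fold change −3.02 ± 0.47, adjusted p = 3.1e-04). The stimulated libraries were nearly equal and all far below the untreated ones. *Fam180a* was at 0.775, 2.16 and 1.03 CPM in cytokine-treated libraries, against 7.91, 10.1 and 3.45 CPM in untreated libraries (log2 fold change −2.49 ± 0.48, adjusted p = 0.0017). *Lrrn4cl* was at 2.15, 3.49 and 3.52 CPM in cytokine-treated libraries, against 8.04, 11.2 and 8.06 CPM in untreated libraries (log2 fold change −1.64 ± 0.23, adjusted p = 1.3e-04). *Medag*, linked to the formation of fat cells, was at 3.34, 7.07 and 3.80 CPM in cytokine-treated libraries, against 12.7, 15.1 and 11.8 CPM in untreated libraries (log2 fold change −1.56 ± 0.28, adjusted p = 8.8e-04). The spread within the groups was wide for *Fam180a*, whose lowest untreated library was at less than 2 times its highest stimulated one. *Slc22a23*, a transporter of the organic ion family, was at 5.07, 5.26 and 6.05 CPM in cytokine-treated libraries, against 17, 12.6 and 15.3 CPM in untreated libraries (log2 fold change −1.42 ± 0.16, adjusted p = 1.6e-05). *Gxylt2*, which adds xylose to sugars on Notch proteins, was at 4.77, 8.91 and 8.45 CPM in cytokine-treated libraries, against 15.1, 27.8 and 15.3 CPM in untreated libraries (log2 fold change −1.40 ± 0.21, adjusted p = 2.1e-04). *Dusp1*, the phosphatase that switches off MAP kinases, was at 7.33, 13.1 and 6.43 CPM in cytokine-treated libraries, against 16.02, 33.6 and 20.4 CPM in untreated libraries (log2 fold change −1.36 ± 0.19, adjusted p = 7.8e-05). In these 7 genes no stimulated library reached an untreated one, as the naming rule required. *Fam180a*, *Lrrn4cl* and *Medag* were not called without the block (adjusted p = 0.075, 0.072 and 0.17).

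Most of the others among the 15 lowest were expressed at a few CPM. *Dact3*, an antagonist of Wnt signalling, was at 2.74, 2.94 and 2.16 CPM in cytokine-treated libraries, against 5.68, 6.95 and 5.97 CPM in untreated libraries (log2 fold change −1.24 ± 0.18, adjusted p = 1.4e-04). *Tns1*, a focal adhesion protein, averaged 20.2 ± 6.23 CPM with cytokines and 45.2 ± 7.11 CPM without (SD, log2 fold change −1.20 ± 0.19, adjusted p = 3.0e-04). *Asic1*, an acid-sensing ion channel, averaged 21.1 ± 10.2 CPM with cytokines and 42.9 ± 9.09 CPM without (SD, log2 fold change −1.18 ± 0.22, adjusted p = 0.0013). *Chst1*, a sulfotransferase, averaged 3.16 ± 0.737 CPM with cytokines and 7.50 ± 2.34 CPM without (SD, log2 fold change −1.24 ± 0.18, adjusted p = 1.7e-04). *Cd300lb*, an immunoglobulin-like receptor, averaged 6.47 ± 0.961 CPM with cytokines and 14.5 ± 0.99 CPM without (SD, log2 fold change −1.17 ± 0.22, adjusted p = 0.0016). *Zfp469* averaged 2.56 ± 0.52 CPM with cytokines and 6.07 ± 1.29 CPM without (SD, log2 fold change −1.23 ± 0.30, adjusted p = 0.0092), and its adjusted p reached 0.067 in a fit with a library left out. Of these 6 genes *Dact3* was also called without the block (adjusted p = 0.0058).

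**Figure D4:**
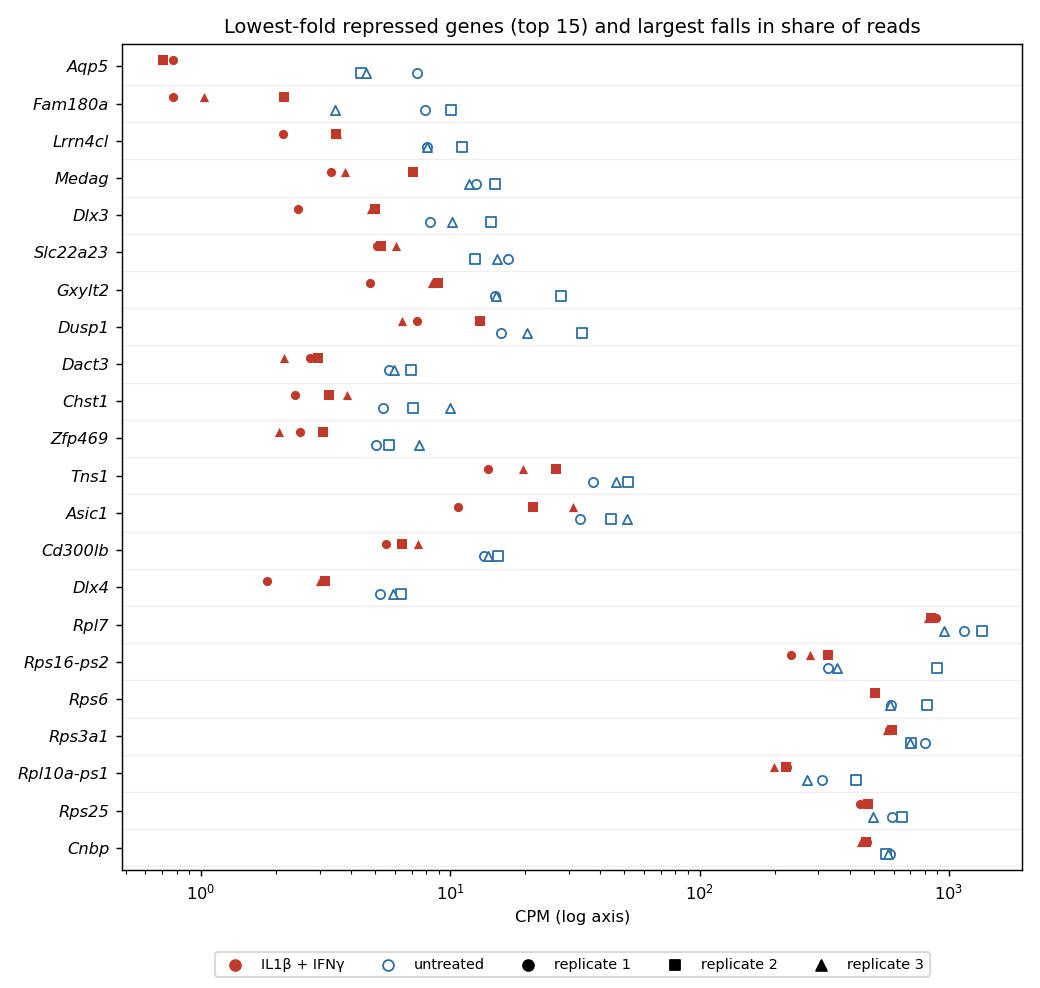
CPM in each control shRNA library (log axis) of the 15 repressed genes with the lowest fold change, followed by 7 of those with the largest fall in share of reads. Filled red symbols are libraries with IL1β and IFNγ, open blue symbols untreated libraries, and the symbol shape gives the replicate number. The groups are apart for each gene, as the rule that chose them required. For the lower 7 they are closer, and for *Rps16-ps2* they nearly touch.

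Developmental transcription factors were among the genes that fell furthest, although the list of 36 had 6 repressed and 5 induced members and a median of 0.0021. Over all tested genes 8.88% were repressed and 10.4% induced. Without the block 2 members of the list were called repressed and 1 induced. *Tfap2c*, which encodes AP-2γ, was at 0.596, 0.746 and 1.17 CPM in cytokine-treated libraries, against 3.99, 3.92 and 4.13 CPM in untreated libraries (log2 fold change −2.22 ± 0.29, adjusted p = 5.8e-05). The homeobox gene *Dlx3* was at 2.44, 4.98 and 4.83 CPM in cytokine-treated libraries, against 8.30, 14.6 and 10.1 CPM in untreated libraries (log2 fold change −1.44 ± 0.22, adjusted p = 2.4e-04). Another homeobox gene, *Dlx4*, was at 1.85, 3.14 and 3.003 CPM in cytokine-treated libraries, against 5.21, 6.38 and 5.88 CPM in untreated libraries (log2 fold change −1.13 ± 0.19, adjusted p = 7.0e-04). In all 3 genes the groups were apart, which the naming rule required for *Dlx3* and *Dlx4*. *Tfap2c* and *Dlx4* were called without the block, with adjusted p = 0.0081 and 0.044. *Sox9* (−0.66 ± 0.18) and *Foxc2* (−0.57 ± 0.12 on the log2 scale) were also repressed, and lost their calls in 5 and 1 of 9 fits with control libraries left out. The largest rise was in *Prdm1*, which encodes the repressor BLIMP1, at 0.953, 1.65 and 2.63 CPM in cytokine-treated libraries, against 0.0529, 0.189 and 0.0426 CPM in untreated libraries (log2 fold change 4.17 ± 0.56, adjusted p = 7.0e-05). The other induced members, *Tfap2a* (0.56 ± 0.11), *Tbx3* (0.59 ± 0.17), *Foxf1* (0.34 ± 0.10) and *Irx2* (0.30 ± 0.098), changed by less than 2-fold, and *Tbx3*, *Foxf1* and *Irx2* lost their calls in 6, 4 and 7 of these fits.

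The Notch list had 3 induced and 3 repressed genes of 14, where 10.4 and 8.88% of all tested genes were induced and repressed. *Notch1* was at 30.8, 57.2 and 53.6 CPM in cytokine-treated libraries, against 10.1, 13.99 and 21.3 CPM in untreated libraries (log2 fold change 1.66 ± 0.14, adjusted p = 4.1e-07). *Hes1*, a target of Notch, was at 0.894, 1.45 and 1.36 CPM in cytokine-treated libraries, against 3.52, 5.86 and 3.92 CPM in untreated libraries (log2 fold change −1.83 ± 0.23, adjusted p = 3.1e-05). *Notch2* averaged 58.7 ± 7.30 CPM with cytokines and 43.4 ± 5.96 CPM without (SD, log2 fold change 0.44 ± 0.11, adjusted p = 0.0078). *Maml3*, a coactivator, averaged 3.54 ± 1.47 CPM with cytokines and 6.52 ± 2.16 CPM without (SD, log2 fold change −0.86 ± 0.20, adjusted p = 0.0073). *Notch1* and *Hes1* were the only members called without the block. Mitosis genes were called mostly downwards, 8 of 28 against 1 upwards (*Top2a*, 0.32 ± 0.10), with a median of −0.18, where 8.88 and 10.4% of all tested genes were called in these directions. *Ube2c*, a ubiquitin-conjugating enzyme that works with the anaphase-promoting complex, was at 133, 141 and 156 CPM in cytokine-treated libraries, against 217, 231 and 177 CPM in untreated libraries (log2 fold change −0.53 ± 0.11, adjusted p = 0.0027). *Cdc25b* averaged 150.4 ± 49.95 CPM with cytokines and 202 ± 55.2 CPM without (SD, log2 fold change −0.44 ± 0.096, adjusted p = 0.0042). *Hmmr* averaged 41.8 ± 3.01 CPM with cytokines and 52.8 ± 6.25 CPM without (SD, log2 fold change −0.33 ± 0.084, adjusted p = 0.012). *Anln* averaged 173 ± 26.98 CPM with cytokines and 225 ± 38.3 CPM without (SD, log2 fold change −0.38 ± 0.099, adjusted p = 0.014). No mitosis gene was called without the block, 2 to 5 were repressed in the fits that left out any 1 control library or numbered pair, and with control libraries left out *Top2a* lost its call in 7, *Hmmr* in 6, *Anln* in 5, and *Ube2c* and *Cdc25b* in 1 of 9 fits.

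Among the called genes that met the naming rule, the largest falls in share of reads were mostly in ribosomal protein genes and their copies. The means of *Rplp0* (6008 CPM with cytokines, 6724 CPM without) and *Gapdh* (2090.5 and 2436 CPM) fell further, but neither gene was called. Of 84 tested members of the list of cytosolic ribosomal protein genes, 3 of them annotated as pseudogenes, 21 were repressed and none induced (26 and none in DESeq2, 35 and none at an unadjusted p under 0.05), with a median of −0.18 against −0.029 for all tested genes. None was called without the block in edgeR, and 36 were repressed with scaling by library totals. The count was 10 without the stimulated and 5 without the untreated replicate 1, 5 without the stimulated and 9 without the untreated replicate 2, 20 without either library of replicate 3, and 7, 2 and 20 without the numbered pairs 1, 2 and 3. *Rpl7* was at 889, 851 and 825 CPM in cytokine-treated libraries, against 1149, 1352 and 953 CPM in untreated libraries (log2 fold change −0.42 ± 0.11, adjusted p = 0.016). *Rps6* was at 499, 505 and 503 CPM in cytokine-treated libraries, against 588, 817 and 583 CPM in untreated libraries (log2 fold change −0.38 ± 0.11, adjusted p = 0.022). *Rps3a1* was at 576, 593 and 567 CPM in cytokine-treated libraries, against 799.5, 705 and 695 CPM in untreated libraries (log2 fold change −0.34 ± 0.10, adjusted p = 0.028). For these 3 genes the stimulated libraries lay closer together than the untreated ones. The lowest adjusted p values of the list were those of *Rps3a2* (log2 fold change −0.63 ± 0.12, adjusted p = 0.0012) and *Rps12l1* (log2 fold change −0.54 ± 0.11, adjusted p = 0.0021), both annotated as processed pseudogenes, and of *Rps23* (log2 fold change −0.53 ± 0.11, adjusted p = 0.0038) and *Rpl37* (log2 fold change −0.48 ± 0.11, adjusted p = 0.0061). *Rps16-ps2*, a pseudogene, was at 233, 328 and 278 CPM in cytokine-treated libraries, against 329, 900.0 and 357 CPM in untreated libraries (log2 fold change −0.81 ± 0.19, adjusted p = 0.0065), with 1 untreated library far above the rest. *Rps16* itself was at 495, 463 and 448 CPM in cytokine-treated libraries, against 588, 572 and 523 CPM in untreated libraries (adjusted p = 0.052). Ribosomal protein genes together took 5.95, 6.55 and 6.44% of counts with cytokines and 7.45, 8.08 and 7.27% without. *Cnbp*, which encodes a nucleic acid-binding protein and is not ribosomal, was also among the largest falls (log2 fold change −0.31 ± 0.091, adjusted p = 0.026), and it lost its call in 8 of 9 fits with control libraries left out. In the same fits *Rps3a1* lost its call in 8, *Rps6* in 5, *Rpl7* and *Rpl37* in 4 each, *Rps16-ps2* in 2, and *Rps23* and *Rps12l1* in 1 each.

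A17.2 cells were treated the same way. Both responses came from the same fit to all 12 libraries, with a shared replicate block and a shared estimate of the spread. Deviations of same-numbered libraries correlated at 0.31 to 0.85 over all groups, so the calls of the pools are not independent. In A17.2 cells 1665 genes were induced (10.6%) and 1086 repressed (6.94%). Of the genes induced in control cells 1250 were also induced in A17.2 cells, which is 76.7% of the control list and 75.1% of the A17.2 list. Of the genes repressed in control cells 428 were also repressed in A17.2 cells, 30.8% of the control list and 39.4% of the A17.2 list. No gene called in both pools went in opposite directions. The medians of the control lists in A17.2 cells were 0.76 for induced and −0.26 for repressed genes. The difference of the responses (control minus A17.2) passed the test with a smaller value in control cells for 65 genes (0.415%) and with a larger one for 1 gene (0.00639%). Of the 1630 genes induced in control cells 63 had a smaller response in control cells and none a larger one.

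Of the genes named here 23 differed in this way, all with the smaller response in control cells. *Cxcl10* responded by 3.33 ± 0.19 in control and 5.00 ± 0.20 in A17.2 cells on the log2 scale (adjusted p of the difference = 0.0049). For *Cxcl10* and *Irf1* the untreated libraries differed between the pools and the stimulated ones lay close. *Cxcl10* was at 8419, 8492 and 8709.8 CPM in stimulated control and 9356, 7609 and 7500.0 CPM in stimulated A17.2 libraries, while untreated libraries were at 829, 970.3 and 748 CPM in control and 233, 201 and 337 CPM in A17.2 cells. *Irf1* was at 1673, 1187 and 1312 CPM in stimulated control and 1456, 1312 and 1336 CPM in stimulated A17.2 libraries, and untreated at 197, 184 and 138 CPM in control and 57.1, 48.4 and 66.5 CPM in A17.2 cells. For 18 of the 23 genes all untreated control libraries were above all untreated A17.2 libraries, and for 16 of 23 the stimulated libraries of the 2 pools overlapped. A smaller response did not mean a lower stimulated level, as the stimulated mean was higher in control cells for 15 of the 23. The part of the untreated level in the difference of responses was not tested. *Nos2* was at 767, 915 and 1047 CPM in stimulated control and 218, 273 and 259 CPM in stimulated A17.2 libraries. The difference of its responses was 0.89 ± 0.71 on the log2 scale and did not pass (adjusted p = 0.72). The untreated control libraries held only 11 *Nos2* reads together, so this test cannot decide whether the responses differ. The stimulated levels of the pools, which did not overlap, were not tested against each other.

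**Figure D5:**
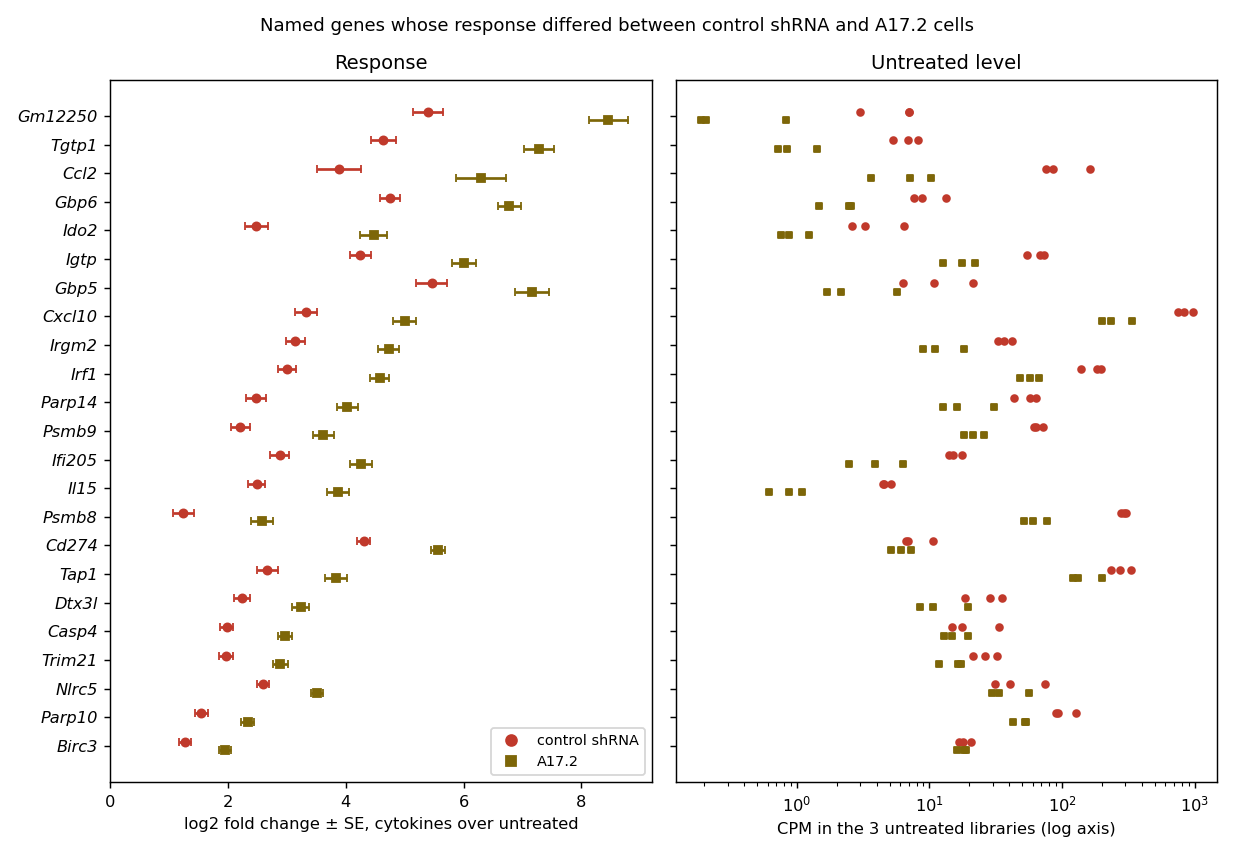
Left, log2 fold change (cytokines over untreated) with its standard error in control shRNA (red circles) and A17.2 cells (brown squares) for the 23 named genes whose responses differed; right, CPM of the same genes in the 3 untreated libraries of each pool (log axis). The control response is the smaller one for every gene shown, and the untreated control level is the higher one on average for all 23.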

How the data were processed

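Poly(A) RNA of 12 MC38CEA libraries was sequenced on an Ion platform kit. The deposited table holds raw counts, whole numbers for each gene symbol and library, as the authors made them. The build is mm10 per the submitters' processing notes; the sources used here give no aligner, counter, annotation or strandedness. The authors' tables of fold changes and p-values were not used.

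All 12 count columns matched a sample by title. Of 43271 rows, 2 with date-like names (0.0108% of counts) were left out, 10997 held only zeros, and filterByExpr kept 15648. The main test was the quasi-likelihood test of edgeR 4.0.16 (R 4.3.3, limma 3.58.1) with TMM normalization over all 12 libraries, 4 groups and the replicate number from the labels as a block (6 residual degrees of freedom), with Benjamini-Hochberg adjustment over all tested genes and a threshold of 0.05. Each standard error was derived from the fold change and its F statistic. Deviations from group means correlated at 0.56 to 0.80 for same-numbered control libraries and at −0.66 to 0.30 for others. The same-numbered values were above the limit of 0.1 in all 3 pairs, so the numbers were taken to pair the libraries. Over all 12 libraries the ranges overlapped, at 0.31 to 0.85 for the same number and −0.75 to 0.46 for different numbers. The labels do not say that replicates were separate cultures, so the p-values rest on a spread that may be technical. No replicates agreed within sampling noise. Depth was 16590635 to 35857493 counts in the control libraries. Scripts were tested on simulated data.

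Named genes were first those measured in the study by RT-qPCR. The 15 highest and 15 lowest called fold changes with groups apart, the same direction in 3 pairs and at least 5 CPM were added, without predicted symbols. So were the 8 largest rises and falls in CPM under the same limits, the CPM minimum aside. For each list described, up to 4 tested members ranked first by adjusted p were added, called or not, and not all of these are printed. Exceptions and members of counts of 5 or fewer, *Art3*, *Cd14*, *Rps16*, *Sox9* and *Foxc2* were chosen after their values were seen. Of the largest falls, 1 gene is not reported here. The question, the members and the 50 gene lists were chosen with earlier results of these data known. Positions are from GENCODE M21 (GRCm38) and promoters from RefSeq. Alternatives were DESeq2 1.42.0, other scalings and filters, the fit without the block, the 6 control libraries alone and fits without each control library or numbered pair.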

Additional observations from a re-analysis of the deposited data

Results flagged for a closer look

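The test of the difference between the responses of control and A17.2 cells passed for 23 of the named genes, each with the smaller response in control cells. On the log2 scale the difference (control minus A17.2) was −3.07 for *Gm12250*, −2.65 for *Tgtp1*, −2.42 for *Ccl2*, −2.03 for *Gbp6*, −1.99 for *Ido2*, −1.76 for *Igtp*, −1.70 for *Gbp5* and −1.67 for *Cxcl10*. It was −1.59 for *Irgm2*, −1.58 for *Irf1*, −1.55 for *Parp14*, −1.41 for *Psmb9*, −1.39 for *Ifi205*, −1.38 for *Il15*, −1.33 for *Psmb8* and −1.26 for *Cd274*. For the last 7 it was −1.17 for *Tap1*, −0.999 for *Dtx3l*, −0.99 for *Casp4*, −0.92 for *Trim21*, −0.91 for *Nlrc5*, −0.79 for *Parp10* and −0.69 for *Birc3*. The adjusted p (edgeR) lay between 6.9e-04 for *Cd274* and 0.05 for *Ccl2*. *Ccl2* averaged 1566 CPM in stimulated and 108 CPM in untreated control cells, and 551 CPM in stimulated and 7.01 CPM in untreated A17.2 cells. *Cd274* averaged 160.1 CPM in stimulated and 8.03 CPM in untreated control cells, and 295 CPM in stimulated and 6.18 CPM in untreated A17.2 cells.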

How the results depend on the processing

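With the replicate block left out the test called 491 induced and 28 repressed genes, and in the 6 control libraries alone without the block 395 and 9. A minimum change of 2-fold gave 310 induced and 5 repressed genes. Scaling by library totals gave 1342 induced and 2303 repressed genes; it moved the median of all genes to −0.11 and the share of induced among all calls to 36.8%, from 54.0% with TMM. The 6 control libraries with the block (1953 and 1603), DESeq2 with the block (1744 and 1412), its size factors in edgeR (1678 and 1323), no filter (1655 and 1488) and a minimum of 50 counts in 3 libraries (1473 and 1489) stayed within 1.5 times. Leaving out control libraries or numbered pairs gave 1207 to 1597 induced and 533 to 1106 repressed genes. Of 160 named genes called, 121 kept their call in all 9 such fits; 10 induced and 29 repressed ones lost it at least once. Without the block 24 induced and 40 repressed named genes lost their call.

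The log2 fold change of *Polr2b* turned positive with the 6 control libraries (0.0087 with the replicate block, 0.0094 without), DESeq2 (0.0019) and its size factors (0.0018), and lay between −0.044 and 0.032 with control libraries left out, turning in 7 of 9 such fits. That of *Ifi27l2a* turned positive with the 6 control libraries (0.0064 with the block and 1.4e-04 without) and lay between −0.24 and 0.18 with control libraries left out, turning in 5 of 9. Neither gene was called. In genes past 4-fold in place of all called, GAS was in 15.3%, ISRE in 17.7% and κB in 12.8% of windows of induced genes, and in 0, 0 and 0% of 10 windows of repressed genes. Depth limits the genes under 1 CPM, where a handful of untreated reads sets the fold change.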

Other observations

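Lists outside the report's main groups also held called genes. Of 25 tested genes of glycolysis and hypoxia 6 were induced and none repressed (1 and none without the block), with a median log2 fold change of 0.22. *Hk2*, a hexokinase, was at 86.05, 157 and 201 CPM in cytokine-treated libraries, against 18.2, 44.1 and 59.6 CPM in untreated libraries (log2 fold change 1.93 ± 0.10, adjusted p = 2.4e-09), and *Slc2a1*, a glucose transporter, averaged 392.2 ± 72.3 CPM with cytokines and 198 ± 22.7 CPM without (SD, log2 fold change 0.98 ± 0.12, adjusted p = 3.1e-05). *Pfkfb3*, which drives glycolysis, averaged 57.8 ± 20.5 CPM with cytokines and 31.1 ± 14.7 CPM without (SD, log2 fold change 0.96 ± 0.12, adjusted p = 2.8e-05), and *Hif1a* 148 ± 38.96 CPM with cytokines and 95.2 ± 33.4 CPM without (SD, log2 fold change 0.66 ± 0.11, adjusted p = 3.4e-04). Only *Slc2a1* was also called without the block (edgeR, adjusted p = 0.010), where *Hk2*, *Pfkfb3* and *Hif1a* had adjusted p = 0.090, 0.54 and 0.47. The groups of *Pfkfb3* and *Hif1a* overlapped, although both genes were higher with cytokines in all 3 pairs. In A17.2 cells 4 of the 25 were induced, and the median was −0.076.

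Among all tested genes 10.4% were induced and 8.88% repressed, and the lists here are to be read against these shares. Of 18 YAP and TEAD targets 8 were induced and 2 repressed, of 33 TGF-beta and BMP genes 7 and 5, and of 19 aminoacyl-tRNA synthetases 4 and none. Of 172 solute carriers 26 were induced and 11 repressed. Complex I, IV and ATP synthase genes had 8 repressed of 63 and none induced, and cholesterol and fatty acid synthesis genes 3 of 30 and none. Without the block no more than 7 genes of any of these lists were called in a direction.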
